A study of Mus musculus with 9 samples.

Results

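The vitamin D receptor gene Vdr, its classical target Cyp24a1 and 8 further nuclear receptor genes (Rxra, Nr3c1, Pparg, Ppard, Nr4a1, Nr2f1, Nr2f2 and Nr1d1) were followed in cultured cardiac fibroblasts in which Gata4 or Tbx20, transcription factors of heart development, was knocked down. These 10 genes were taken by symbol from the 38924 genes of the count table and were selected with their measured values in these libraries known, so their levels are given as a description and no p-value is given for them. Counts of members past a threshold stand only beside the share or count of all genes past it. All cells were primary cardiac fibroblasts of adult mice 8 to 10 weeks old, on a C57BL/6 background, carrying the RosaCas9-EGFP allele, so that every group expressed Cas9 nuclease together with a green fluorescent reporter. Cells were grown for 3 days, sorted as CD45-CD31-CD90+ (a gate against blood and endothelial cells and for a fibroblast surface marker) and replated. After a further 6 days, on reaching 80 to 90% confluency, they were given guide RNAs with a lipid reagent. Control cells received scrambled guides, Gata4 KD cells 2 guides against Gata4 and Tbx20 KD cells 2 guides against Tbx20. There were 3 libraries in each group, named here by group and letter (control a, Gata4 KD b and so on). The study calls them biological replicates, but the labels do not say whether they came from separate animals or cultures, so the p-values measure only the spread between these libraries, which may be technical.

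Nuclear receptors are transcription factors, many of which are switched on or off by small fat-soluble ligands such as steroid hormones, fatty acids and vitamin derivatives. The vitamin D receptor binds calcitriol, the hormonal form of vitamin D, and acts on DNA as a pair with a retinoid X receptor, and Cyp24a1, the enzyme that breaks calcitriol down, is among its most responsive targets. Other members of the family sense glucocorticoids (Nr3c1) or fatty acids (Pparg, Ppard), repress the circadian clock (Nr1d1), or act without a known classical ligand (Nr4a1, Nr2f1, Nr2f2). In fibroblasts vitamin D signalling is known to oppose profibrotic TGF-beta signalling.

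The guides are shown because each knockdown depends on them, with the adjoining NGG motif that Cas9 needs in capitals. They were matched to GENCODE M21 transcripts on GRCm38.
Gata4_sgRNA1: cagagagtgtgtcaattgtgGGG
Gata4_sgRNA3: gcaggactgggctgtcgaagGGG
Tbx20_sgRNA2: caaattccatgaactgggcaCGG
Tbx20_sgRNA3: gagctgctcgccagtaaaggGGG
Gata4_sgRNA1 matched the minus strand at chr14:63204711-63204730, inside the coding sequence of 3 of the 6 Gata4 transcripts. Gata4_sgRNA3 matched the plus strand at chr14:63240581-63240600, inside the coding sequence of 2 of the 6. Tbx20_sgRNA2 (chr9:24770708-24770727, minus strand) lay in the coding sequence of 2 of 5 Tbx20 transcripts and Tbx20_sgRNA3 (chr9:24765732-24765751, plus strand) in that of 3 of 5. In the transcripts of 9 of the 10 genes described here, the closest site beside an NGG motif to any of the 4 guides had 7 mismatches. Nr3c1 was not searched.

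Total counts per library ranged from 31214828 to 41950397. Levels are counts scaled to library size (CPM) after TMM scaling over the 9 libraries. Gata4 was at 155 to 167 CPM in control and 46.7 to 65.5 CPM in Gata4 KD (log2 fold change -1.55, edgeR quasi-likelihood adjusted p = 0.00272). Tbx20 was at 720 to 1276 CPM in control and 320 to 428 CPM in Tbx20 KD, without overlap, but did not pass the test over all genes (adjusted p = 0.748). The 10 fibroblast markers summed to 12150 to 14480 CPM in control, 8711 to 13400 CPM in Gata4 KD and 11770 to 15030 CPM in Tbx20 KD. By edgeR 0 of them passed in any comparison. Col1a1 and Tcf21 were lower in Gata4 KD than in control without overlap, and the others overlapped. All 6 adipocyte markers and 8 of 9 cardiomyocyte markers stayed under 1 CPM in every library. The 6 mesothelial markers summed to 25.5 to 49.2 CPM in control, 9.44 to 17.2 CPM in Gata4 KD and 27.1 to 44.0 CPM in Tbx20 KD, with Msln under 1 CPM throughout. Most of that difference was 1 gene, Lrrn4, at 15.7 to 32.5 CPM in control and 2.09 to 2.74 CPM in Gata4 KD (log2 fold change -3.38, edgeR adjusted p = 0.00272). Upk3b and Upk1b were also lower without overlap but did not pass (edgeR adjusted p of 0.247 and 0.201), and Krt19 and Wt1 overlapped control. The 9 endothelial markers summed to 41.6 to 60.1 CPM in control, 42.1 to 61.3 CPM in Gata4 KD and 45.3 to 57.6 CPM in Tbx20 KD. Among them Kdr, a VEGF receptor, was at 2.29 to 3.47, 5.06 to 6.19 and 2.68 to 3.22 CPM, and passed between the knockdowns (edgeR adjusted p = 0.0258) but not against control (0.0996). The other endothelial markers overlapped control in Gata4 KD, some with a higher mean (Pecam1, 8.30 against 5.55 CPM) and others with a lower one (Tek, 22.1 against 28.0 CPM). The 10 macrophage markers summed to 51.2 to 58.5 CPM in control, 26.8 to 51.7 CPM in Gata4 KD and 46.7 to 75.4 CPM in Tbx20 KD. Of these only Csf1r was lower in Gata4 KD than in control without overlap (edgeR adjusted p = 0.236), and the others overlapped. The 5 mural markers summed to 24.6 to 33.8, 18.8 to 37.7 and 28.3 to 37.2 CPM, and the 4 Schwann markers to 1.54 to 2.47, 1.41 to 1.85 and 1.31 to 1.77 CPM. Rgs5 (mural) was higher and S100b (Schwann) lower in Gata4 KD without overlap, but neither passed (0.265 and 0.577 by edgeR). The part of these differences in the values below was not tested. In bulk RNA, fewer cells of a type and less RNA per cell cannot be told apart.

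Vdr (ENSMUSG00000022479, minus strand of chromosome 15 from 97854425 to 97910630, GRCm38) differed between all 3 groups with no overlap. Its level was 63.7, 54.4 and 63.4 CPM in control a, b and c, 108, 115 and 117 CPM in Gata4 KD, and 46.9, 45.7 and 53.0 CPM in Tbx20 KD. The Gata4 KD libraries all lay above the controls and the Tbx20 KD libraries all below them. Means were 60.5 ± 5.28 CPM in control, 113 ± 4.92 CPM in Gata4 KD and 48.6 ± 3.90 CPM in Tbx20 KD (SD, n = 3 each). The log2 fold change was 0.90 (SE 0.09) for Gata4 KD against control, -0.31 (SE 0.09) for Tbx20 KD against control, and 1.22 (SE 0.07) for Gata4 KD directly against Tbx20 KD. The first and second of these share the control libraries.

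The 250 bases upstream of the RefSeq start of Vdr (chr15:97908297-97908546, minus strand, GRCm38.p6) lie inside the GENCODE gene, which extends further upstream, and are shown because Vdr had the highest log2 fold change of the members in Gata4 KD against control.
Vdr: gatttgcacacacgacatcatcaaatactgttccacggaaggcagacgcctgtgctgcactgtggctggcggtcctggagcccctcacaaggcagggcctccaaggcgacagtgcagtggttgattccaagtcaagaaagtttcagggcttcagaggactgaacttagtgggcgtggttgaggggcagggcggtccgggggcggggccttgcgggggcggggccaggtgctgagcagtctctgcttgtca
No GATA motif (the letters AGATAA or the letters AGATAG, as well as either with T for its first letter), T-box motif (AGGTGTGA), receptor half-site (AGGTCA), cAMP response element (CRE, TGACGTCA) or its core (TGACG, which the full element contains) occurred on either strand of this window. Over 32851 RefSeq windows of this length, these were found in 26.5%, 1.12%, 14%, 1.55% and 17.8%, respectively.

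Rxra, the retinoid X receptor that pairs with it and with many other receptors, was at 78.3, 76.7 and 73.1 CPM in control, 80.1, 74.4 and 83.4 CPM in Gata4 KD and 79.1, 84.8 and 84.7 CPM in Tbx20 KD. Its Gata4 KD libraries overlapped the controls (log2 fold change 0.06, SE 0.08, and 0.03 to 0.10 when libraries were left out in turn), and its Tbx20 KD libraries lay just above them (0.13, SE 0.07). Cyp24a1 (chromosome 2) had 2, 0 and 2 counts in control, none in any Gata4 KD library, and 0, 2 and 0 counts in Tbx20 KD, 6 counts in all. Each library was under the floor of 3 counts that a count of 0 allows, equal to 0.0715 to 0.0961 CPM, so Cyp24a1 was excluded by the filter on low counts and no fold was computed. Intervals and floors of this kind cover counting error only.

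**Figure D1:**
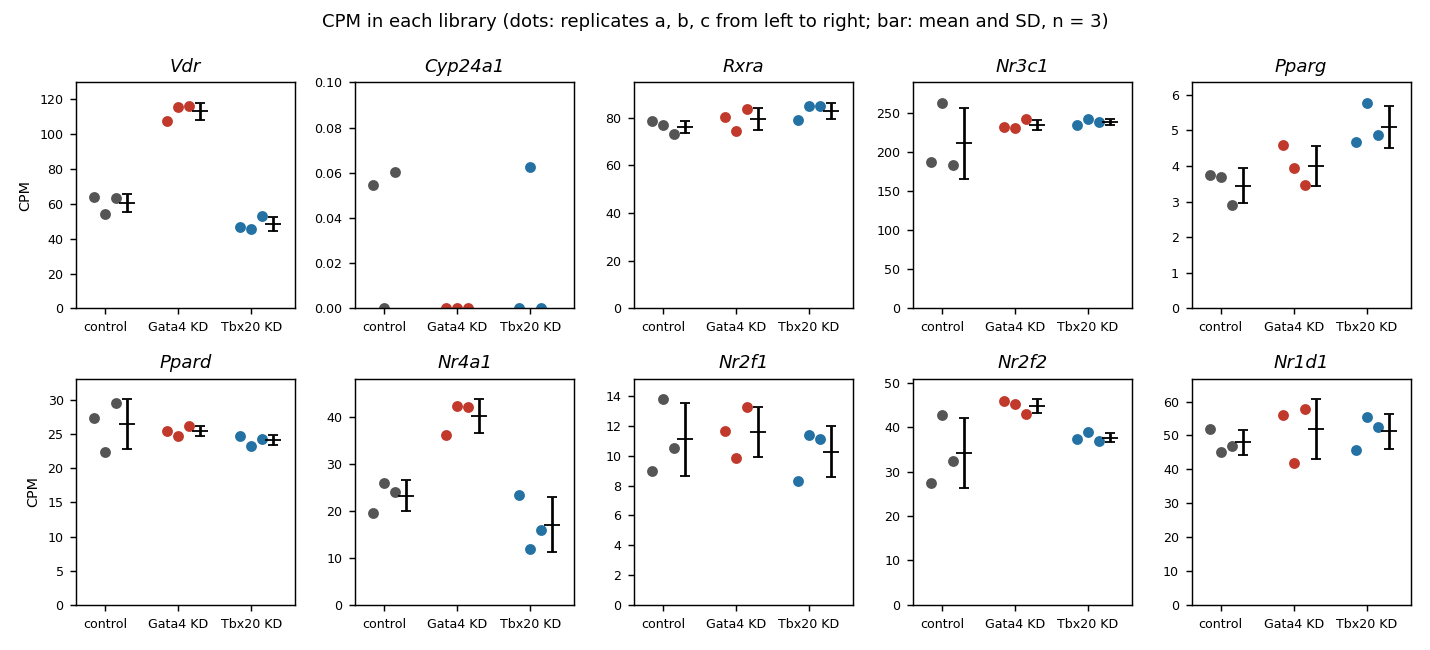
Level in CPM (vertical axes from 0, a scale for each gene) in each of the 9 libraries, with replicates a, b and c from left to right within each group, and the mean and SD beside them except for Cyp24a1. Vdr and Nr4a1 lie higher in all 3 Gata4 KD libraries than in the 6 others, whereas Cyp24a1 stays at or under 0.0627 CPM.

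Nr4a1 (ENSMUSG00000023034), an early response gene induced within minutes to hours of many stimuli, lies on the plus strand of chromosome 15 from 101254269 to 101274795, 3.344 Mb from Vdr. It was at 19.6, 26.1 and 24.0 CPM in control, 36.1, 42.3 and 42.3 CPM in Gata4 KD, and 23.4, 11.9 and 16.0 CPM in Tbx20 KD. All Gata4 KD libraries were above all others, and Tbx20 KD overlapped control through its library a. The log2 fold change was 0.79 (SE 0.12) in Gata4 KD, -0.43 (SE 0.23) in Tbx20 KD and 1.23 (SE 0.22) between the knockdowns. The value in Tbx20 KD was -0.72 without Tbx20 KD a and -0.23 without Tbx20 KD b. The upstream window of Nr4a1 (chr15:101266596-101266845, plus strand, GRCm38.p6) is shown because it held 4 CRE cores, in capitals as their reverse complement CGTCA, whose letters ended 229, 209, 65 and 36 bases before the start. The start meant is that of the RefSeq table, which lies inside the GENCODE gene, downstream of its first annotated base.
Nr4a1: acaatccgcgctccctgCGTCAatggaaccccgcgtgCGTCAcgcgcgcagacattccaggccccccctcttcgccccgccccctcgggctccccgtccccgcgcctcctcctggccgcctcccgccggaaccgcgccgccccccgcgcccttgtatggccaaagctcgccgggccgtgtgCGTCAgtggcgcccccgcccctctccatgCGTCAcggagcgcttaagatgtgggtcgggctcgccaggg
Such a core occurred in 17.8% of all windows, and no GATA, T-box or full CRE motif was found here. A match is a description of letters and not of binding.

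Nr2f2, which encodes the orphan receptor COUP-TFII, known for roles in atrial and venous identity, was at 27.4, 42.7 and 32.4 CPM in control, 46.0, 45.3 and 43.1 CPM in Gata4 KD and 37.3, 38.9 and 36.8 CPM in Tbx20 KD. The Gata4 KD libraries lay above the others, although control b was close to the lowest of them. Of the 75 base windows of Nr2f2 transcripts, 6.63% occur in another gene. The log2 fold change in Gata4 KD was 0.39 (SE 0.15) against control and 0.25 (SE 0.05) against Tbx20 KD, and the former was 0.25 without control a and 0.58 without control b. Its upstream window (chr7:70366747-70366996, minus strand, GRCm38.p6) is shown because it held a GATA motif. The motif is in capitals as the reverse complement of AGATAG, 118 to 113 bases before the RefSeq start. The sequence at that start was not found in a GENCODE transcript of Nr2f2. Among the 8 genes whose windows were searched, only Nr2f2 held this motif, against 26.5% of all windows. Nr3c1 was not searched, and Cyp24a1 had no window.
Nr2f2: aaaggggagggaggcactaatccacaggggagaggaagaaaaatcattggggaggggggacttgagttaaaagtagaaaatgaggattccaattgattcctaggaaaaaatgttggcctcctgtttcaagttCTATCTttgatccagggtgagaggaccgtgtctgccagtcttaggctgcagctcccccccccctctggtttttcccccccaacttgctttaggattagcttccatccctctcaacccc
Its paralog Nr2f1 was lower and overlapped between all groups, at 9.01 to 13.8 CPM in control, 9.88 to 13.3 CPM in Gata4 KD and 8.30 to 11.4 CPM in Tbx20 KD.

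Pparg, the fatty acid sensor that drives fat cell formation, had the highest log2 fold change of the members in Tbx20 KD against control. It was at 3.76, 3.70 and 2.89 CPM in control, 4.60, 3.94 and 3.46 CPM in Gata4 KD and 4.66, 5.77 and 4.86 CPM in Tbx20 KD. Each Tbx20 KD library exceeded each other library (log2 fold change 0.57, SE 0.16 against control), although the lowest (4.66 CPM) was close to Gata4 KD a (4.60 CPM). Gata4 KD overlapped control (0.21, SE 0.18, and 0.10 to 0.33 when libraries were left out in turn). A match to the T-box motif AGGTGTGA lay 246 to 239 bases before 1 of its 3 RefSeq starts. It was the only such match among the 8 members whose windows were searched, some with several windows. Nr3c1 was not searched, and Cyp24a1 had no window. Of all windows 1.12% held such a match, a share per window and not per gene. Here too a match is a description of letters and not of binding. The adipocyte markers were under 1 CPM in every library. Ppard, its broadly expressed relative, was at 22.5 to 29.6 CPM in control, 24.8 to 26.3 CPM in Gata4 KD and 23.3 to 24.7 CPM in Tbx20 KD and overlapped control in both knockdowns.

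Nr3c1, the glucocorticoid receptor, was the most abundant member. It was at 187, 263 and 183 CPM in control, 231, 230 and 242 CPM in Gata4 KD and 235, 243 and 239 CPM in Tbx20 KD. Control b was above every other library and the remaining controls below every knockdown library, so the groups overlapped. Nr1d1, the clock repressor REV-ERB alpha, was at 45.1 to 52.0 CPM in control, 41.8 to 57.8 CPM in Gata4 KD and 45.6 to 55.6 CPM in Tbx20 KD. It overlaps the antisense gene Thra, and 6.5% of its windows occur in another gene.

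**Figure D2:**
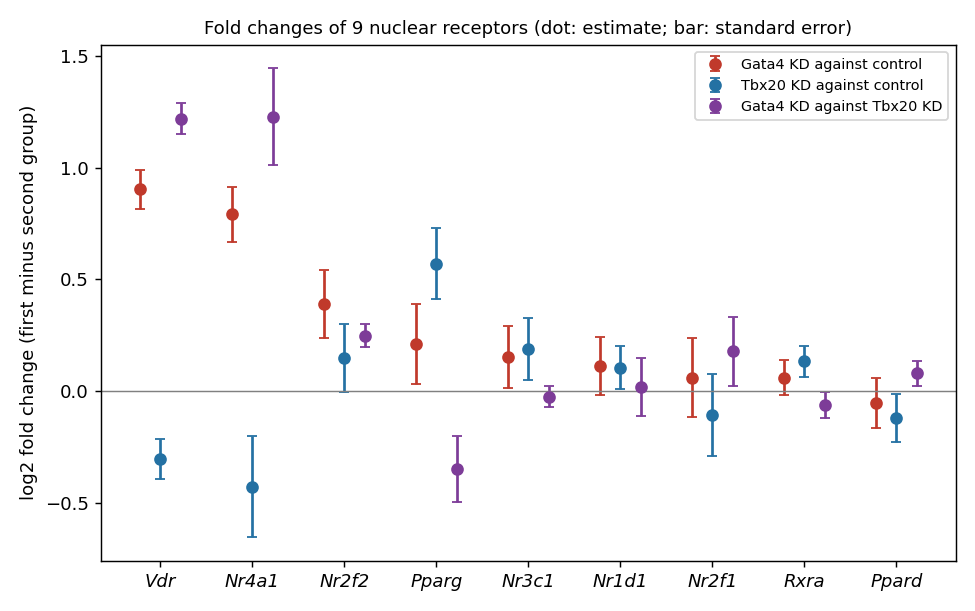
Log2 fold change (vertical axis, first minus second group) of 9 genes in the 3 comparisons, with dots for estimates and bars for standard errors. Vdr and Nr4a1 lie above 0.7 in Gata4 KD against control and near 1.22 between the knockdowns, and Pparg has the highest value in Tbx20 KD.

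Of the 9 members that passed the filter, 2 passed an adjusted p of 0.05 in Gata4 KD against control, where 0.38% of all genes tested did, and 3 did not overlap between groups, against 13.8% of all genes. In Tbx20 KD against control 0 passed and 3 did not overlap (Vdr, Pparg and Rxra), against 0.00687% and 6.74% of all genes. Between the knockdowns 2 passed and 5 did not overlap, against 1.44% and 23%. Nothing is read from these counts, since the members were chosen on these contrasts. Leaving out control a, or Gata4 KD b, gave 0 in the first comparison, leaving out control c, Gata4 KD a or Gata4 KD c gave 1, and leaving out control b gave 3. Leaving out Gata4 KD a, Gata4 KD b, Tbx20 KD b or Tbx20 KD c gave 1 between the knockdowns, and leaving out Gata4 KD c gave 3. Over all genes, calls then ranged from 6 to 189 in the first comparison and from 22 to 801 between the knockdowns. These counts of members are likewise not read as a result.

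Levels of different receptors were compared per kilobase of exon. Of 49 nuclear receptor genes, 34 were tested in every comparison, 10 had counts but were too low to test, and 5 had none. In control, Nr3c1 led with 27.4 ± 5.85 CPM per kb (SD, n = 3), and its lowest library exceeded the highest of Nr1d1 (15.6 ± 1.17 CPM per kb). Rxra followed at 13.9 ± 0.50 CPM per kb. Vdr, at 10.7 ± 0.93 CPM per kb, was sixth after Rarg and Nr1d2 and could not be separated from Nr1d2 or Rorb by their spread. Nr4a1 had 6.62 ± 0.94 CPM per kb, Nr2f2 3.96 ± 0.91, Ppard 3.52 ± 0.49, Nr2f1 2.18 ± 0.48 and Pparg 1.17 ± 0.16. Among hormone receptors of neighbouring pathways, Rarg was at 12.5 CPM per kb, Rara at 5.35, Thra at 4.94, Rarb at 1.37 and Thrb at 0.82. Of the 75 base windows of Rarb transcripts, 32.1% occur in another gene.

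**Figure D3:**
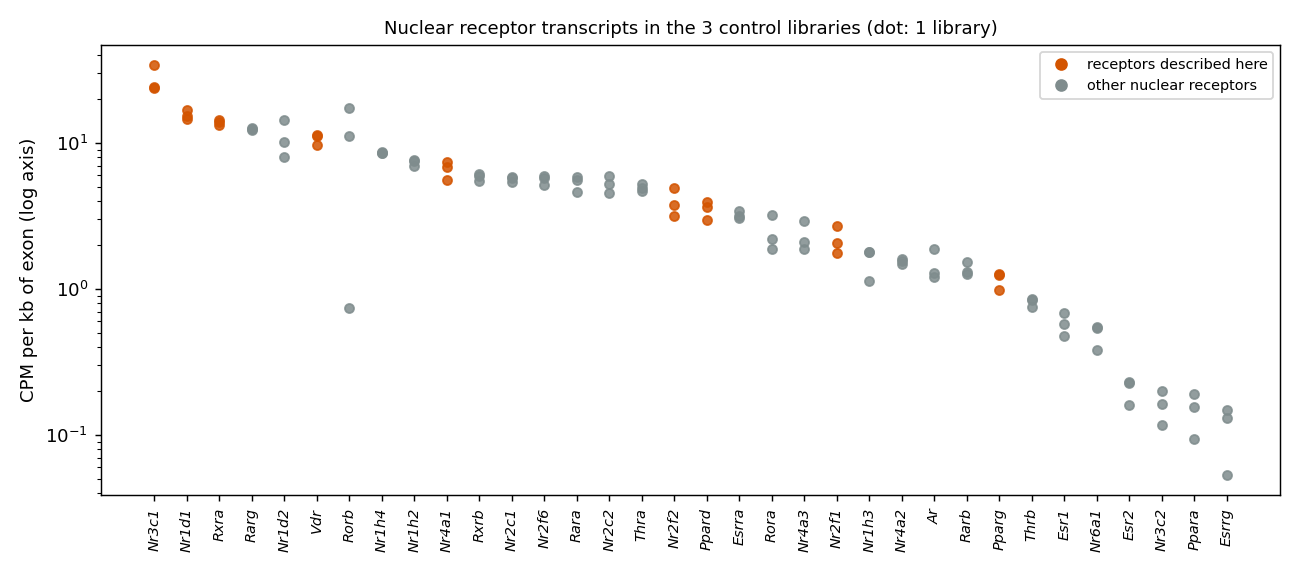
CPM per kb of exon (log axis) of the 34 tested nuclear receptors in the 3 control libraries, ordered by mean, with a dot for each library and the receptors described here in orange. Nr3c1 leads at 27.4 CPM per kb, Vdr stands at 10.7, and Rorb has the widest spread.

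The genes around the members were taken from 9 lists of 137 genes other than the members, of which 106 were tested in each comparison. These lists were also chosen with earlier results of these data known. Nothing is therefore read from their shares beside those of all genes, and the adjusted p-values of list genes carry the same limit. In Gata4 KD against control 2 passed (1.89%, against 0.38% of all genes), Spp1 higher and Nr1h4 lower, and the median log2 fold change was 0.03 (-0.02 over all genes). In Tbx20 KD against control 0 of 106 passed by edgeR's quasi-likelihood test, with 3 at an unadjusted p under 0.05 and 0 by DESeq2 or an exact test. Between the knockdowns 4 passed (3.77%, against 1.44% of all genes), Spp1, Errfi1 and Hlf higher and Nr1h4 lower in Gata4 KD.

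Among 25 tested receptors that are no members, only Nr1h4 passed by edgeR in any comparison. In Gata4 KD against control 6 were at an unadjusted p under 0.05, with 2 called by DESeq2 and 1 by an exact test. Between the knockdowns 9 were, with 4 called by each of these tests. In Tbx20 KD against control 1 was, with 0 called by either. Nr1h4, the bile acid receptor FXR, was at 19.7, 19.9 and 19.7 CPM in control, 12.3, 11.95 and 14.1 CPM in Gata4 KD and 19.2, 19.5 and 20.3 CPM in Tbx20 KD. All Gata4 KD libraries were below the other 6. It fell by 0.63 on the log2 scale (SE 0.10) against control (edgeR adjusted p = 0.0493) and by 0.62 (SE 0.08) against Tbx20 KD (adjusted p = 0.0189). Leaving out any of control a, control c, Gata4 KD a and Gata4 KD b ended the first call (adjusted p 0.126 to 0.322), and any of Gata4 KD a, Gata4 KD b, Tbx20 KD b and Tbx20 KD c ended the second (0.0748 to 0.119). The other members of the Nr4a group, also early response genes, did not pass. Nr4a2 was at 6.29, 6.52 and 6.00 CPM in control and 10.5, 11.04 and 7.39 CPM in Gata4 KD (log2 fold change 0.62, SE 0.16, edgeR adjusted p = 0.247), and Nr4a3 was at 12.5, 17.6 and 11.3 CPM and 19.7, 21.8 and 18.98 CPM (0.55, SE 0.16, adjusted p = 0.327).

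Of 12 vitamin D receptor targets 4 were tested, and Spp1 was the one that passed. The median log2 fold change of the 4 was -0.04 in Gata4 KD and -0.16 in Tbx20 KD against control, and in Gata4 KD that of Tnfsf11 was -0.20, of Lrp5 -0.17 and of Atp2b1 0.09 (edgeR adjusted p of 0.918, 0.725 and 0.868). Spp1, the secreted matrix protein osteopontin, was at 52.2, 50.4 and 57.8 CPM in control, 155, 162 and 93.1 CPM in Gata4 KD and 41.4, 47.3 and 41.0 CPM in Tbx20 KD. Its log2 fold change was 1.36 (SE 0.19, edgeR adjusted p = 0.0348) in Gata4 KD against control and 1.66 (SE 0.20, adjusted p = 0.0152) between the knockdowns. The first call ended when any of control a, control c, Gata4 KD a and Gata4 KD b was left out (adjusted p 0.101 to 0.212), and the second on leaving out Gata4 KD a, Tbx20 KD b or Tbx20 KD c (0.0871 to 0.11). Spp1 is also expressed by macrophages, whose markers summed to 26.8 to 51.7 CPM in Gata4 KD against 51.2 to 58.5 CPM in control, and 8.55% of its windows occur in another gene. Of 6 tested genes of vitamin D uptake and activation 0 passed in either knockdown by edgeR, with 0 at an unadjusted p under 0.05 and 0 by DESeq2 or an exact test. Between the knockdowns 0 passed as well, with 1 at an unadjusted p under 0.05, 1 by DESeq2 and 0 by an exact test. Lrp2, the uptake receptor for the vitamin D binding protein, was at 1.34 to 2.26 CPM in control, 1.80 to 5.45 CPM in Gata4 KD and 0.99 to 1.82 CPM in Tbx20 KD. Cyp2r1, a 25-hydroxylase, Cyp27a1, another hydroxylase, and Dhcr7, which consumes the precursor of vitamin D, differed from control by 0.40, 0.10 and 0.09 on the log2 scale in Gata4 KD, with adjusted p of 0.744, 0.936 and 0.895 by edgeR.

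Glucocorticoid genes were tested as 5 genes of hormone activation and chaperones and 14 receptor targets. Of the 5, 0 passed in any comparison by edgeR, with 1 at an unadjusted p under 0.05 in Gata4 KD and 0 by DESeq2 or an exact test in either knockdown against control. Between the knockdowns 1 was at an unadjusted p under 0.05, and DESeq2 and the exact test each called 1. Hsd11b1, which regenerates active glucocorticoid, was at 66.6, 61.8 and 71.8 CPM in control, 53.9, 56.4 and 61.5 CPM in Gata4 KD and 70.4, 71.3 and 73.4 CPM in Tbx20 KD (adjusted p = 0.545 in Gata4 KD and 0.0522 between the knockdowns). Hsp90ab1, a chaperone of the receptor, was at 2210 to 2702 CPM in all libraries. Of the 14 targets only Errfi1, a feedback inhibitor of the EGF receptor, passed by edgeR, between the knockdowns. There 5 were at an unadjusted p under 0.05, and DESeq2 and the exact test each called 2. Against control 0 passed by edgeR in either knockdown, while in Gata4 KD 2 were at an unadjusted p under 0.05 and DESeq2 and the exact test each called 2. Errfi1 was at 59.5, 82.8 and 62.8 CPM in control, 106, 112 and 103 CPM in Gata4 KD and 75.1, 58.9 and 59.2 CPM in Tbx20 KD. Its log2 fold change between the knockdowns was 0.73 (SE 0.10, edgeR adjusted p = 0.0209), a call that ended when Gata4 KD a, Gata4 KD b, Tbx20 KD b or Tbx20 KD c was left out (0.0798 to 0.12). Against control it was 0.64 (adjusted p = 0.10).

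Of 11 tested PPAR targets 0 passed by edgeR in either knockdown, with 2 at an unadjusted p under 0.05 in Gata4 KD, 0 in Tbx20 KD, and 0 by DESeq2 or an exact test in both. Between the knockdowns 0 passed by edgeR, with 2 at an unadjusted p under 0.05, 2 by DESeq2 and 2 by an exact test. Lpl, lipoprotein lipase, was at 80.5, 89.0 and 67.6 CPM in control, 53.3, 52.7 and 69.8 CPM in Gata4 KD and 83.1, 100.3 and 88.6 CPM in Tbx20 KD. Fabp4, a fatty acid carrier, was at 1.34 to 2.26 CPM in control, 2.21 to 4.57 CPM in Gata4 KD and 1.22 to 1.47 CPM in Tbx20 KD. Plin2, a coat protein of lipid droplets, overlapped between all groups at 165 to 249 CPM. In the 17 tested clock genes only Hlf, a clock output transcription factor, passed by edgeR, between the knockdowns. There 5 were at an unadjusted p under 0.05, and DESeq2 and the exact test each called 3. Against control 0 passed by edgeR in either knockdown, while in Gata4 KD 4 were at an unadjusted p under 0.05 and DESeq2 and the exact test each called 2. Hlf was at 0.95, 1.34 and 0.66 CPM in control, 2.46, 2.67 and 1.91 CPM in Gata4 KD and 0.69, 1.097 and 1.02 CPM in Tbx20 KD (log2 fold change 1.34, SE 0.23, edgeR adjusted p = 0.0449). Leaving out Gata4 KD a, Gata4 KD b or any Tbx20 KD library ended this call (adjusted p 0.0925 to 0.178).

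**Figure D4:**
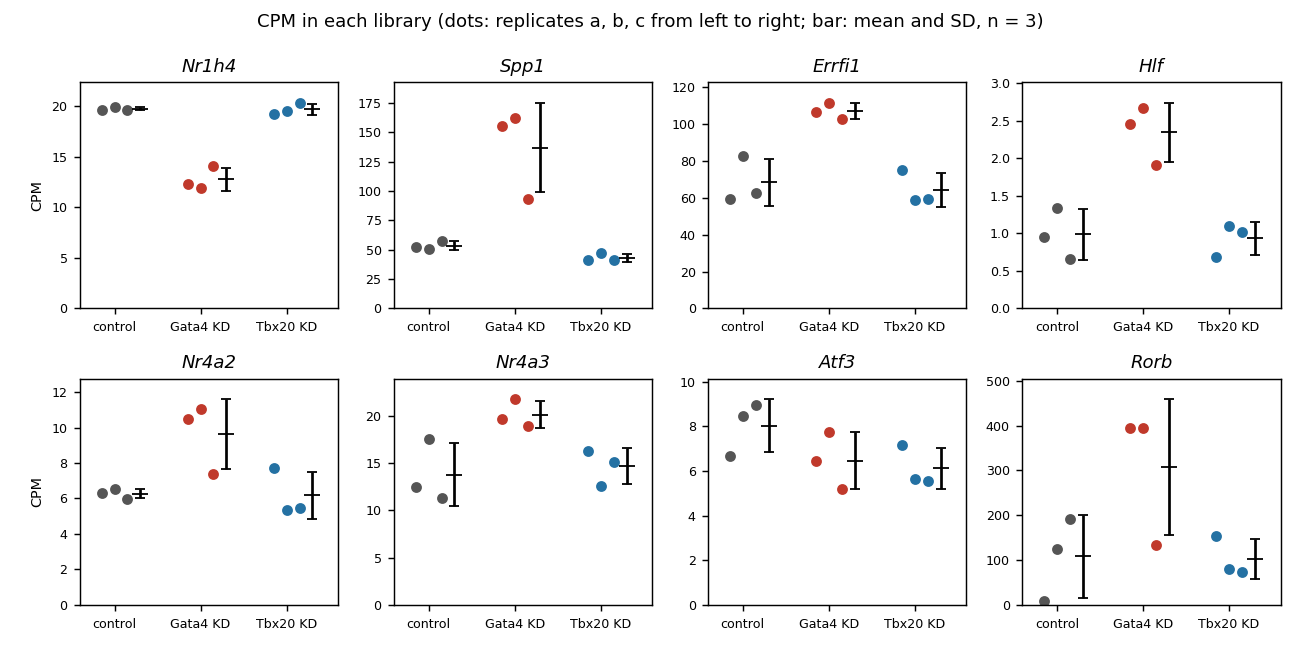
Level in CPM (vertical axes from 0) in each library of the 4 list genes that passed the test and of 4 other genes, with dots for replicates a, b and c and bars for the mean and SD of 3 libraries. Nr1h4 is lower and Spp1, Errfi1 and Hlf are higher in every Gata4 KD library than in every other library, and Rorb varies most within groups.

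Of 15 tested early response genes other than Nr4a1 0 passed by edgeR in either knockdown, with 3 at an unadjusted p under 0.05 in Gata4 KD and 1 in Tbx20 KD, 1 by DESeq2 and 0 by an exact test in Gata4 KD, and 0 by both in Tbx20 KD. Between the knockdowns 0 passed by edgeR, with 5 at an unadjusted p under 0.05, 4 by DESeq2 and 3 by an exact test. Their median log2 fold change was 0.04 in Gata4 KD, -0.22 in Tbx20 KD and 0.33 between the knockdowns, against -0.02, -0.002 and -0.006 over all genes. Atf3 was at 6.69 to 8.95 CPM in control, 5.17 to 7.74 CPM in Gata4 KD and 5.55 to 7.17 CPM in Tbx20 KD, Fosb at 1.51 to 2.12, 1.08 to 1.68 and 1.02 to 1.82 CPM, and Dusp1 at 62.6 to 70.6, 72.1 to 77.4 and 55.5 to 73.2 CPM. Of 16 tested coregulators 0 passed by edgeR against control in either knockdown, with 0 at an unadjusted p under 0.05 and 0 by DESeq2 or an exact test. Between the knockdowns 0 passed by edgeR, with 5 at an unadjusted p under 0.05, 1 by DESeq2 and 0 by an exact test. Med1, which bridges receptors to the Mediator complex, was at 87.6 to 101 CPM in control and 104 to 107 CPM in Gata4 KD, and Ep300, a histone acetyltransferase, at 120 to 140 and 141 to 154 CPM. Lcor, Ncoa1 and the corepressor Ncor1 overlapped between control and both knockdowns, with adjusted p of at least 0.84 in each by edgeR.

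Vdr and Nr4a1 share chromosome 15, a feature that was not used to choose them. Between them, 60 genes were tested in Gata4 KD against control and 0 passed by edgeR, with a median log2 fold change of 0.05 against -0.02 over all genes. In the same comparison 14 of the 60 did not overlap with higher values and 1 with lower values. Of all 14468 genes tested, 896 did not overlap with higher values and 1102 with lower values (13.8% in either direction). Between the knockdowns 4 of 63 passed, all higher in Gata4 KD (Col2a1, Lima1, Ccdc184 and Aqp5), against 1.44%.

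**Figure D5:**
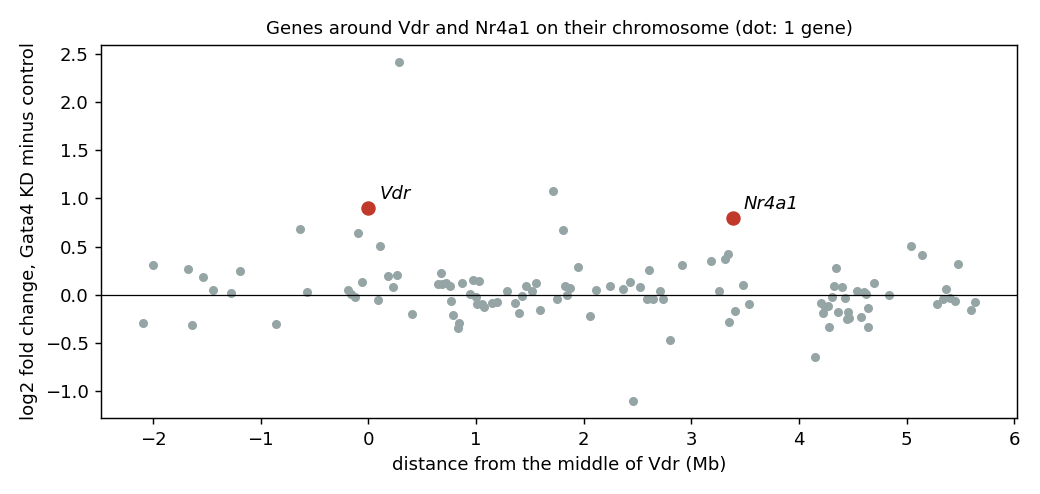
Log2 fold change in Gata4 KD against control (vertical axis) of tested genes by distance from the middle of Vdr in Mb (horizontal axis), with a dot for each gene and Vdr and Nr4a1 in red. The 60 genes between Vdr and Nr4a1 have a median of 0.05.

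The genes most like Vdr in pattern across the 9 libraries, by Pearson's r of log2 CPM among 10070 genes of at least 5 CPM, were Efna4 (0.985), Ano6 (0.981), Chst15 (0.975), Peak1 (0.975) and Arid5b (0.967). For Nr4a1 they were Ptch1 (0.982), Trib1 (0.972), Klf3 (0.971), Lima1 (0.965), which lies between Vdr and Nr4a1, and Akap12 (0.963). For Pparg they were Exoc8 (0.92), Pla2g12a (0.90), Aig1 (0.883), Coa6 (0.882) and Orc5 (0.876), and for Nr2f2 Zc2hc1a (0.976), Zfp608 (0.966), Zbtb34 (0.952), Tfb2m (0.943) and Gopc (0.941). For Rxra they were R3hdm4 (0.982), Pgap2, Pcif1, Scara3 and Cbx6, and for Ppard Phkg2 (0.991), Tor1a, Stk16, Dpp3 and Git1. These values describe the 9 libraries, whose points share their groups, depth and scaling, and carry no test.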

How the data were processed

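The study sequenced mRNA libraries as 75 base single-end reads. Reads were aligned by the authors and abundances estimated per gene with RSEM. The labels name Bowtie and build mm9, the study's methods Bowtie2 and GRCm38. The deposited table holds expected counts per gene as whole numbers, not normalized, made by the authors. RSEM divides reads that fit several genes, so similar genes carry more error. All columns belong to the 9 libraries. Symbols and positions came from GENCODE M21 on GRCm38 (96.6% of genes) and upstream windows from RefSeq.

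Each comparison was fitted on its 6 libraries in R 4.3.3 with edgeR 4.0.16 (filterByExpr at a minimum count of 10, TMM, quasi-likelihood F test, Benjamini-Hochberg over all genes, threshold 0.05). The procedure was tested on simulated counts. Exact permutation of 3 against 3 libraries cannot go below p = 0.1. Alternatives were DESeq2 1.42.0, library size alone, no filter, an exact test, all 9 libraries in 1 fit, a replicate block and leaving out each replicate. Members and lists were chosen with earlier results of these data known. Named were the members, list genes that passed, otherwise the 2 with the smallest p against control and the most expressed gene of a list, and the 5 genes most like a member whose groups did not overlap in some comparison (log2 CPM, prior count 2).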

Additional observations from a re-analysis of the deposited data

How the results depend on the processing

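The count of list genes passing in Gata4 KD against control was 2, and it was 7 with DESeq2, 6 with an exact test, 4 with no filter, 0 with a replicate block and 0 to 6 when replicates were left out. Between the knockdowns it was 4, and 17 with DESeq2, 15 with an exact test, 9 with no filter and 0 to 16 when replicates were left out. Library size alone and all 9 libraries in 1 fit stayed within 1.5 times of both counts, and the block gave 3 between the knockdowns. In Tbx20 KD against control it was 0 under all 12 alternatives. Over the whole table the calls were 55, 1 and 208, with 279, 10 and 758 by DESeq2, 250, 8 and 729 by an exact test, 121, 2 and 324 without the filter, 5, 2 and 101 with the block, and 6 to 189, 1 to 5 and 22 to 801 when replicates were left out. In 1 fit of all 9 libraries, Gata4 KD against control gave 148.

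The labels do not say whether libraries with the same replicate letter share an animal or culture. Same-letter deviations from the group means correlated between -0.17 and 0.255, and different-letter ones between -0.385 and 0.347. With 3 libraries in each group these values cannot decide whether the letters are a pairing. Under the block the Nr1h4 and Spp1 calls in Gata4 KD against control were lost (adjusted p 0.234 and 0.22), and the Hlf call between the knockdowns (0.0915), which was also lost with library size alone (0.0513) and in 1 fit of all 9 libraries (0.0568). The causes were not tested. In Tbx20 KD against control, where none passed, the sign of the log2 fold change turned for Nr1h4 (0.006287 to -0.004552 in 1 fit of all 9 libraries, and between -0.01563 and 0.02318 without a replicate), Errfi1 (between -0.2024 and 0.09351) and Hlf (between -0.2923 and 0.2113). The count of members passing in Gata4 KD against control, 2, was 0 with the block and 1 in 1 fit of all 9 libraries. That between the knockdowns, 2, was 1 with the block or library size alone and 3 with DESeq2 or an exact test. Over the settings that kept every library, calls over all genes ranged from 5 to 279 and from 101 to 758, respectively. Nothing is read from these counts of members. Of 297 fold changes of members under alternatives all lay within 1 SD of the reported value (the SD of log2 CPM within the groups compared). This limit could hardly be passed, so nothing is concluded from it. Leaving out 1 of 3 libraries moves a group mean by less than that SD, and the other alternatives refit the same libraries. Of the 297, 9, in 3 members, had the opposite sign. Cyp24a1, at 6 counts in all, was too low to test.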

Other observations

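Rorb, an orphan receptor that was picked out after its values were seen, varied most within groups. It was at 8.27, 124 and 192 CPM in control, 394, 395 and 133 CPM in Gata4 KD and 153, 80.3 and 73.3 CPM in Tbx20 KD, with a log2 fold change of 1.51 (SE 0.86) in Gata4 KD against control and an edgeR adjusted p of 0.71.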
